A study of Homo sapiens with 4 samples.

Results

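The genes described here are the non-keratin intermediate filament genes NEFH, NEFM, NEFL, NES, VIM, SYNM, LMNA, LMNB1 and LMNB2, 9 of the 26518 genes measured. They were chosen by gene name, with earlier results of the comparison of shSASH1 with shControl cells known, so their values in that comparison are given as a description and without a test. The RNA came from MDA-MB-468, a human line of basal-like, triple-negative breast cancer. The 2 shSASH1 libraries came from cells in which a hairpin RNA delivered by lentivirus targets SASH1, the gene of a signalling scaffold. The 2 shControl libraries came from cells carrying the control pGIPZ lentivirus, and both lines were selected with puromycin as stable cells. The labels do not say how many hairpins or clones a line holds, or whether replicates were grown apart, so the error terms measure only the spread between these libraries, which may be technical.

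Intermediate filaments are rope-like polymers of coiled-coil proteins. The neurofilament proteins, nestin, vimentin and synemin form filaments in the cytoplasm, and the lamins form a meshwork under the inner nuclear membrane. Epithelial cells rely mainly on keratin filaments, vimentin is typical of mesenchymal cells, nestin of neural progenitors and neurofilaments of axons, and nestin and vimentin are also found in some basal-like breast cancers. A-type lamins come from LMNA and vary with cell type and stiffness of the surroundings, while the B-type lamins come from LMNB1 and LMNB2.

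The values are TPM, a measure of transcript abundance that takes out gene length, so levels of different genes can be compared. The 14458 genes whose mean across libraries reached 1 TPM were fitted together with limma, and a gene is called where its Benjamini-Hochberg adjusted p is under 0.05. Log2 changes are shSASH1 minus shControl on the log2(TPM + 1) scale, which understates the change of low genes. Read numbers rebuilt from TPM came to 24375729 and 19560807 in the shSASH1 libraries and 20802079 and 24200249 in the shControl libraries. SASH1 itself, the targeted gene, stood at 3.65 and 4.01 TPM in shSASH1 and at 14.99 and 13.0 TPM in shControl, lower in both shSASH1 libraries as the labels say. Replicates were further apart in shSASH1 than in shControl, with a median within-group SD of 0.126 against 0.0507 log2 units. Libraries were correlated at 0.975 within shSASH1 and 0.988 within shControl (Pearson's r of log2 values across the tested genes, which are not independent replicates).

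**Figure D1:**
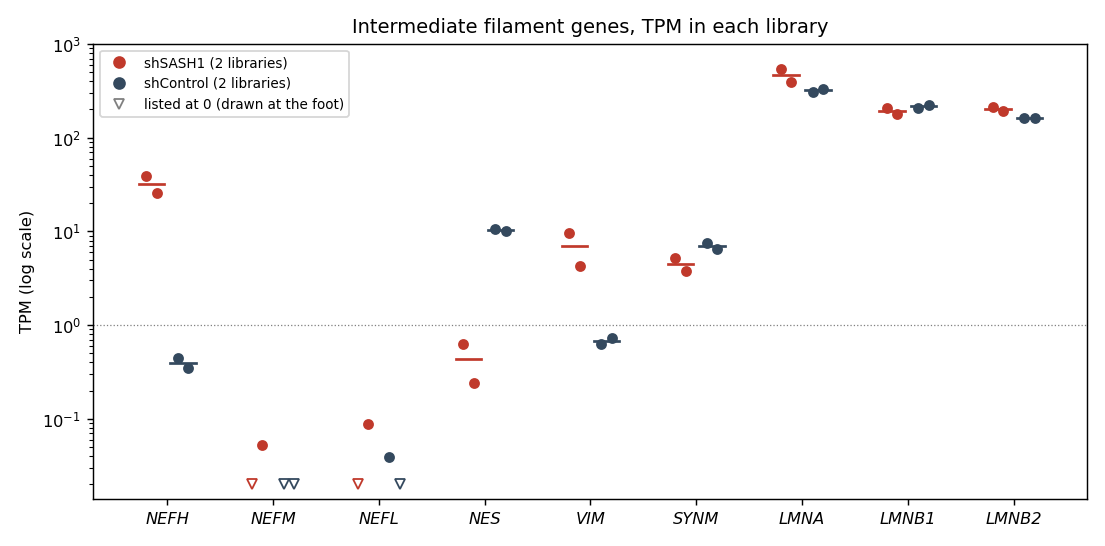
TPM of the 9 genes in each library on a log axis, shSASH1 in red and shControl in dark blue, with bars at group means and open triangles where a gene is listed at 0. NEFH and VIM lie higher in both shSASH1 libraries, NES lies lower, the 3 lamins stay at 162 TPM or above in every library, and NEFM and NEFL lie under 0.1 TPM.

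NEFH (ENSG00000100285), the heavy neurofilament subunit, showed the widest difference of the 9 genes, with a moderate level in shSASH1 and close to none in shControl. It stood at 39.0 and 25.6 TPM in the shSASH1 libraries, against 0.451 and 0.347 TPM in the shControl libraries. Every shSASH1 value was far above every shControl value. The shControl values rest on 10 and 9 rebuilt reads, with exact 95% Poisson intervals of 0.216 to 0.829 and 0.158 to 0.658 TPM that cover counting error only. The means were 32.3 ± 9.44 TPM in shSASH1 and 0.399 ± 0.0737 TPM in shControl (SD, n = 2 each), a ratio of 81.1, and the log2 change was 4.55 ± 0.23 (SE). Among protein-coding genes, the level of NEFH exceeded 76.0% and 67.3% of genes in the shSASH1 libraries and 30.4% and 29.2% in the shControl libraries. In bulk RNA, a higher level in every cell and a larger share of cells that express the gene cannot be told apart.

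The tail of NEFH carries many lysine-serine-proline repeats, which are heavily phosphorylated in axons. The coding sequence of NEFH held 40 such triplets, against 13 in NEFM, 1 in NES and 0 in the other 6 genes. The stretch with most of them among all windows of 40 codons (codons 514 to 553, chr22:29489180-29489299, hg38, plus strand, exon 4) is shown with the 6 triplets in capitals.
NEFH tail: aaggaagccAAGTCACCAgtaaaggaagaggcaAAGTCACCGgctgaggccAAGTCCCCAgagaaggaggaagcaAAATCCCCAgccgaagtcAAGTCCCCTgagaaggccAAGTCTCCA

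The other neurofilament subunits did not accompany NEFH. NEFM (ENSG00000104722), the medium subunit, was listed at 0 and 0.0525 TPM in shSASH1 and at 0 in both shControl libraries. NEFL (ENSG00000277586), the light subunit around which neurofilaments are built in axons, was listed at 0 and 0.0882 TPM in shSASH1 and at 0.0394 and 0 TPM in shControl. No library held more than 2 rebuilt reads of either gene, and 3 reads would have been 0.0998 to 0.131 TPM of NEFM and 0.101 to 0.132 TPM of NEFL. Both genes therefore stayed at or under the counting floor in all 4 libraries, no fold change is given, and they were under the filter for the fit. They are neighbours on chromosome 8, with 32 kb between NEFM (24913012 to 24919098, plus strand) and NEFL (24950955 to 24957110, minus strand), whereas NEFH lies on chromosome 22 (29480230 to 29491390, plus strand). The neurofilament label thus rests on NEFH in these cells.

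NES (ENSG00000132688), which encodes nestin, a filament protein of neural progenitors that assembles together with vimentin, differed in the opposite direction. It stood at 0.629 and 0.240 TPM in the shSASH1 libraries, against 10.6 and 10.05 TPM in the shControl libraries. Both shSASH1 values lay below both shControl values, and they rest on 23 and 7 rebuilt reads against 346 and 383. The means were 0.435 ± 0.275 TPM in shSASH1 and 10.3 ± 0.411 TPM in shControl (SD, n = 2 each), so the shControl mean was 23.8 times the shSASH1 mean, with a log2 change of -2.99 ± 0.20 (SE). With a pseudocount of 0.1 in place of 1 the log2 change was -4.39. The shSASH1 libraries themselves differed, replicate 1 holding 2.62 times the TPM of replicate 2.

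VIM (ENSG00000026025, chromosome 10, 17228259 to 17237593, plus strand), which encodes vimentin, the main filament protein of mesenchymal cells, was higher in shSASH1 and low in shControl. VIM exceeded 52.2% and 43.3% of protein-coding genes in the shSASH1 libraries and 32.1% and 33.0% in the shControl libraries. It stood at 9.54 and 4.28 TPM in shSASH1, against 0.626 and 0.732 TPM in shControl, where 19 and 26 reads were rebuilt. The groups did not overlap. The means were 6.91 ± 3.72 TPM in shSASH1 and 0.679 ± 0.0748 TPM in shControl (SD, n = 2 each), a ratio of 10.2, with a log2 change of 2.15 ± 0.37 (SE), or 3.06 with a pseudocount of 0.1. Replicate 1 of shSASH1 held 2.23 times the TPM of replicate 2, so the size of the difference depends on the library, with log2 changes of 1.65 to 2.65 when each shSASH1 library was left out in turn. The antisense gene VIM-AS1 shares 641 of its 1992 exon bases with VIM. It stood at 3.06 and 4.03 TPM in shSASH1 and at 0.685 and 0.439 TPM in shControl. Whether counting used strand is not stated, and reads of the shared bases cannot be told apart.

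SYNM (ENSG00000182253, chromosome 15, 99098217 to 99135593, plus strand), which encodes synemin, a large linker-type filament protein that assembles with vimentin or desmin, was somewhat lower in shSASH1. It stood at 5.14 and 3.81 TPM in shSASH1 and at 7.44 and 6.46 TPM in shControl. The groups did not overlap, but the gap between the nearest libraries, 5.14 against 6.46 TPM, was as narrow as the spread within shSASH1. The log2 change was -0.55 ± 0.18 (SE), and SYNM was not called in the all-gene fit.

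The 6 cytoplasmic filament genes thus differed in composition as well as in sum. Their summed TPM was 54.3 and 34.1 in the shSASH1 libraries and 19.2 and 17.6 in the shControl libraries. NEFH made up 71.8% and 75.2% of this sum in shSASH1, against 2.35% and 1.97% in shControl. NES made up 1.16% and 0.704% in shSASH1, against 55.4% and 57.1% in shControl. SYNM held 9.47% and 11.2% in shSASH1 and 38.8% and 36.8% in shControl, while VIM held 17.6% and 12.5% in shSASH1 and 3.26% and 4.16% in shControl. Each of these shares lay outside the range of the other group. They are not separate observations, since a higher NEFH level lowers the share of any gene whose own level stays the same. The mean of SYNM itself was 4.48 TPM in shSASH1 and 6.95 TPM in shControl, and SYNM was not called. Against keratins the sum stayed small. The 55 protein-coding keratin genes summed to 8246 and 6025 TPM in shSASH1 and to 9332 and 9743 TPM in shControl, and the 6 genes made up 0.654% and 0.563% of keratin and cytoplasmic filament TPM in shSASH1, against 0.205% and 0.180% in shControl.

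**Figure D2:**
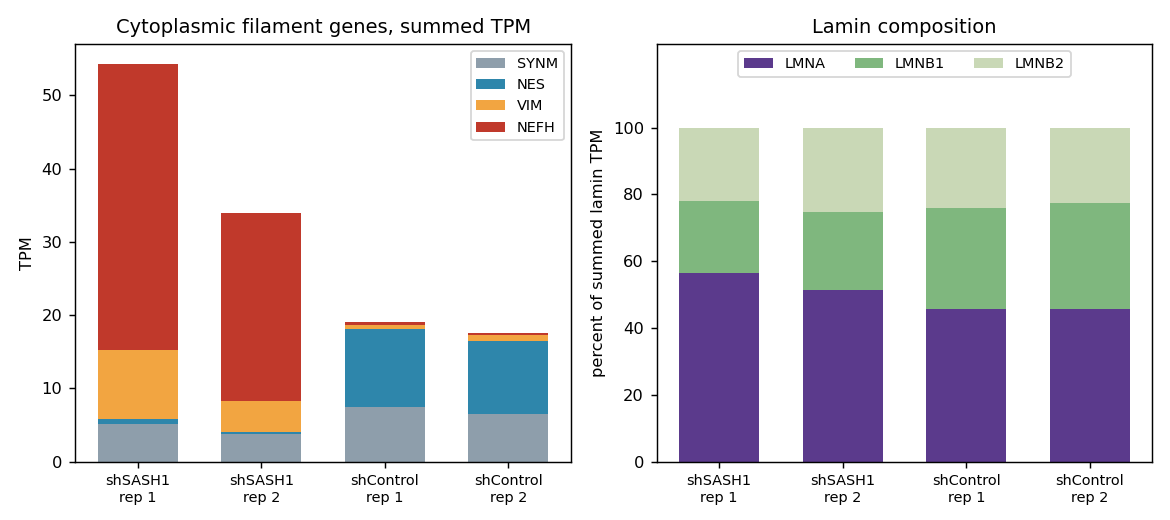
Left, summed TPM of the 4 detected cytoplasmic filament genes in each library. NEFH fills most of the bar in shSASH1, and NES and SYNM in shControl. Right, the share of each lamin gene in the summed lamin TPM, where LMNA takes 51.4% or more in shSASH1 and at most 45.8% in shControl.

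The lamin genes were abundant in every library, each above at least 95.4% of protein-coding genes. LMNA (ENSG00000160789), which encodes lamins A and C by alternative splicing that gene-level TPM cannot separate, stood at 543 and 396 TPM in shSASH1 and at 311 and 328 TPM in shControl. Both shSASH1 values were higher, but the shSASH1 libraries differed from each other by more than the lower of them differed from shControl. The means were 469 ± 104 TPM in shSASH1 and 320 ± 12.1 TPM in shControl (SD, n = 2 each), with a log2 change of 0.54 ± 0.16 (SE), and LMNA was not called. LMNB2 (ENSG00000176619, chromosome 19, 2427638 to 2456996, minus strand) stood at 211 and 194 TPM in shSASH1 and at 163 and 162 TPM in shControl, without overlap, with a log2 change of 0.31 ± 0.06 (SE). TIMM13, an overlapping gene on the same strand that shares 257 exon bases with LMNB2, stood at 72.3 and 57.3 TPM in shSASH1 and at 100 and 102 TPM in shControl. LMNB1 (ENSG00000113368, chromosome 5, 126776623 to 126837020, plus strand), the B-type lamin whose loss is known from senescent cells, stood at 209 and 180 TPM in shSASH1 and at 206 and 225 TPM in shControl. Its groups overlapped, and its log2 change was -0.15 ± 0.10 (SE).

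The ratio of LMNA to LMNB1 was 2.59 and 2.20 in shSASH1, against 1.51 and 1.46 in shControl. LMNA made up 56.4% and 51.4% of the lamin TPM in shSASH1, against 45.7% and 45.8% in shControl. LMNB1 made up 21.8% and 23.4% in shSASH1, against 30.3% and 31.5% in shControl. The LMNA change of 0.54 compares with a median of 0.34 among its chromosome 1 neighbours. The share of LMNB2 overlapped between the groups, at 21.9% and 25.2% in shSASH1 and at 24.0% and 22.7% in shControl.

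Of the 9 genes, 7 passed the filter, and NEFM and NEFL did not. Without overlap between groups, 4 were higher in shSASH1 and 2 lower, where 73.6% of all tested genes had no overlap (41.3% higher and 32.3% lower). In the all-gene fit 4 of the 7 were called, NEFH, VIM and LMNB2 as higher and NES as lower. LMNB2 was not called with median-of-ratios scaling, without a variance trend, with the replicate block or centred on neighbours. Of all tested genes, 32.0% were called, 18.8% as higher and 13.3% as lower. The genes were chosen with this comparison known, so nothing is read from these counts. Without either shControl library 0 of the 7 were called (3 had an unadjusted limma p under 0.05 each time), and without shSASH1 replicate 1 there were 6. Of all tested genes 0 were called without either shControl library, and 7728 without shSASH1 replicate 1. Among all tested genes 2712 were called higher and 1918 lower. Median-of-ratios scaling gave 2352 higher and 2162 lower, and quantile normalization 2280 and 2434. Voom, which also changes the input to rebuilt reads and weights them, gave 2538 and 2809. The direction of each of the 7 genes was the same under all settings in which it was fitted. Part of this was fixed in advance. The filters, the variance trend and the replicate block leave the log2 change as it is. Where the groups do not overlap, leaving out a library cannot turn the direction.

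**Figure D3:**
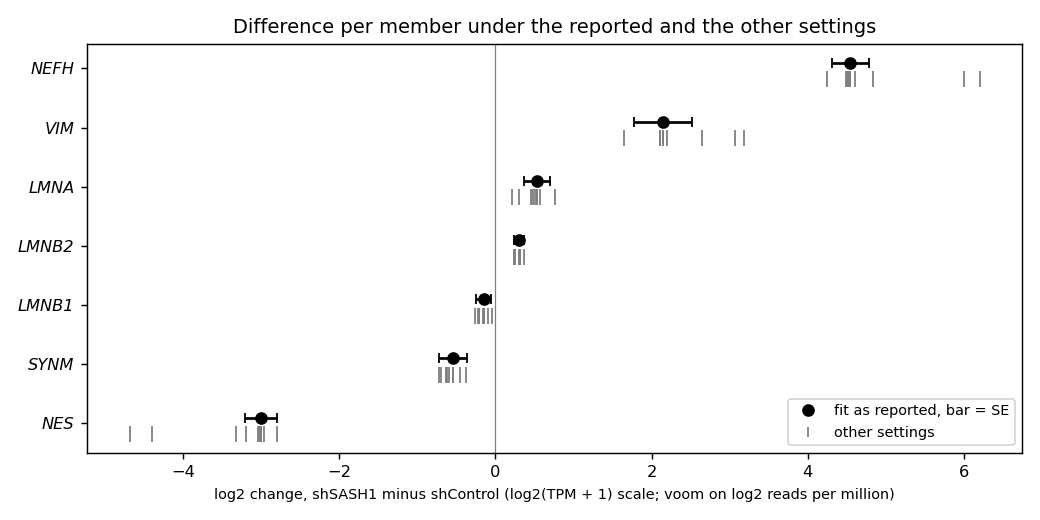
Log2 change of the 7 fitted genes, shSASH1 minus shControl, as points with SE, and as grey ticks under the other settings. NEFH at 4.55 and NES at -2.99 lie farthest from 0, LMNB1 at -0.15 lies nearest, and no tick crosses 0. Ticks of the filter, variance trend and replicate block settings share the value of the point by construction.

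Within shSASH1, all 7 genes were lower in replicate 2 than in replicate 1, while 42.3% of the tested genes were. The ratio of replicate 1 to replicate 2 ran from 1.09 for LMNB2 to 2.62 for NES. Within shControl, 4 of the 7 were lower in replicate 2. The labels do not describe how the shSASH1 libraries differ, and the part of this in the differences between groups was not tested.

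LMNA and NES lie close together on chromosome 1, with 529 kb between the end of LMNA (156082573 to 156140089, plus strand) and the start of the NES interval (156668763 to 156677397, minus strand), and they differed in opposite directions. The 257 tested genes within 10 Mb of LMNA had a median log2 change of 0.34, and 35.8% of them were called higher, against 18.8% of all tested genes. LMNA exceeded this median by 0.20. With each gene centred on its neighbours the log2 change of LMNA was 0.21 in place of 0.54, and that of NES was -3.32. Between the 2 genes lay 16 tested protein-coding genes, of which 3 were called higher and 2 lower, with log2 changes from -1.96 to 0.68. For the other fitted genes the median of the neighbours was between -0.01 (LMNB2) and 0.08 (LMNB1), with 0.03 around NEFH (221 genes) and 0.04 around VIM (70 genes).

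**Figure D4:**
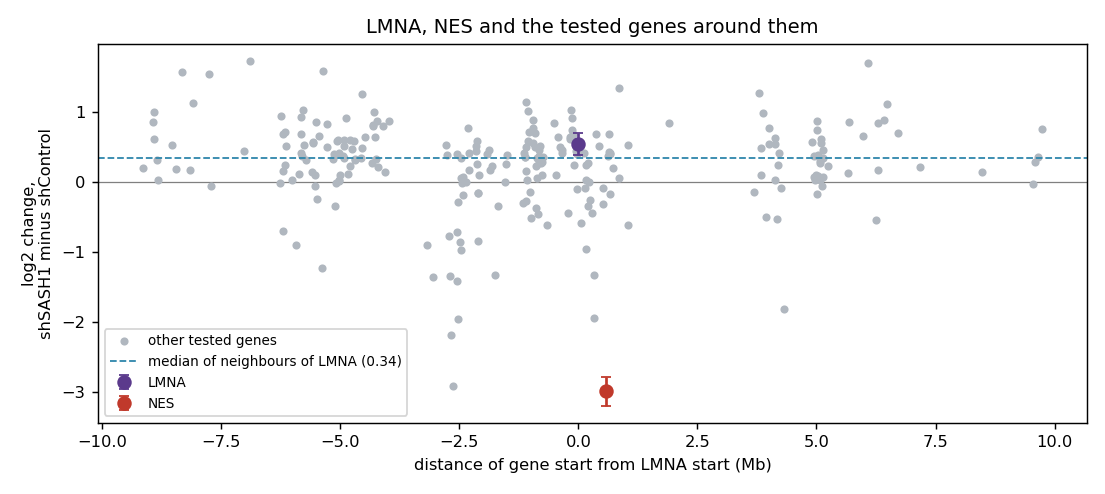
Log2 change of each tested gene within 10 Mb of LMNA against the distance of its start from that of LMNA, with the SE for LMNA and NES. LMNA at 0.54 lies near the dashed median of its neighbours at 0.34, and NES at -2.99 lies below all of them.

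RefSeq promoter sequences (GRCh38.p14) were at hand for 6 of the 9 genes, namely NES, VIM, SYNM, LMNA, LMNB1 and LMNB2. The 250 bases before the start of NES and of VIM are shown because these partners in filament assembly differed in opposite directions. They lie at chr1:156677408-156677657 (minus strand) and chr10:17227991-17228240 (plus strand) and are given 5′ to 3′ in the direction of the gene.
NES promoter: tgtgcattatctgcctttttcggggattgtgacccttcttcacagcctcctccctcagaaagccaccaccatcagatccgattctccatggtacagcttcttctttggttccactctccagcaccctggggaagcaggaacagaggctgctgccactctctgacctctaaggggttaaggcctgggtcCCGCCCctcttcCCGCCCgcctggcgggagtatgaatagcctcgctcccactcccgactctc
VIM promoter: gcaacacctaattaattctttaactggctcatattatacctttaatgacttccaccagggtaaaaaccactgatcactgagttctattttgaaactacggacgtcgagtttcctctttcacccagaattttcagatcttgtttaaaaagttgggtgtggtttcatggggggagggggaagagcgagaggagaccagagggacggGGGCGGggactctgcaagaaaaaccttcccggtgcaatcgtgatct
Capitals mark motif matches on either strand. The GC box, spelled GGGCGG, had 2 matches in NES (read there as its reverse complement) and 1 in VIM, and 42.6% of the 35116 promoters in the table hold it in the same window. The TATA box, spelled TATAAA, had none in either gene, and 10.7% of promoters hold it. The AP-1 motif TGANTCA had none, with 6.57% of promoters. The TEAD motif GGAATG had none, with 11.9%. The CCAAT box had none, with 32.0%. NES had 58.0% G and C, equal to the median of all promoters, and VIM 46.0%. A match is a description of letters and not a binding site, and no match says only that the letters are not in this window.

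Genes that work with these filaments are given from 7 lists of partners, 83 genes in all. Of 71 tested, 18 rose and 5 fell in limma's all-gene fit, or 32.4%, against 32.0% of all tested genes. For the counts per list below, 18.8% of all tested genes were called higher and 13.3% lower, and nothing is read from those counts. The 71 genes had a median log2 change of 0.04, against 0.06 for all tested genes. After quantile normalization 15 were called higher and 11 lower, and with voom 17 and 11. Without either shControl library limma called 0 of them, with 20 (without replicate 1) and 18 (without replicate 2) at an unadjusted p under 0.05, and without shSASH1 replicate 1 or 2 it called 38 or 35.

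Among other non-keratin filament genes, 1 of 3 tested rose and 0 fell (median 0.01). IFFO2, a poorly characterised filament family member, rose to 29.9 and 19.6 TPM in shSASH1, against 12.03 and 11.2 TPM in shControl (log2 change 1.0, limma adjusted p = 0.0285), but was not called without the filter on low values or without a variance trend. INA, a further neuronal filament gene that can assemble with neurofilaments, was at 2.53 and 1.53 TPM in shSASH1 and at 2.41 and 2.11 TPM in shControl (adjusted p = 0.718). The other tested gene, BFSP1, was at 16.5 and 13.0 TPM in shSASH1 and at 16.2 and 13.1 TPM in shControl (adjusted p = 0.975). The remaining DES, GFAP, PRPH, BFSP2 and IFFO1 were under the filter, at no more than 0.439 TPM in any library.

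Around the nuclear lamina, 5 of 20 tested genes rose and 1 fell (median 0.04). SYNE3, a nesprin of the outer nuclear membrane that links it to cytoplasmic filaments, rose to 9.36 and 10.95 TPM in shSASH1, against 5.18 and 5.00 TPM in shControl (log2 change 0.87, adjusted p = 0.0132). The torsin activators TOR1AIP1 (0.46), which binds lamins, and TOR1AIP2 (0.75) rose, as did the nuclear pore protein NUP153 (0.42). LEMD2 (0.30), of the inner membrane, rose and the lamin partner TMPO (-0.33) fell, both outside the rule for named genes and picked after their values were seen. With each gene centred on its neighbours, SYNE3 and TMPO were still called and TOR1AIP1, TOR1AIP2, NUP153 and LEMD2 were not (adjusted p = 0.303, 0.172, 0.255 and 0.459). TMPO and LEMD2 were not called without a variance trend, and LEMD2 also not with quantile normalization, the replicate block or voom. The median change around TOR1AIP1 was 0.55, and its centred change was -0.11. Lamin B receptor LBR (-0.11, adjusted p = 0.579), emerin EMD (0.16, adjusted p = 0.107) and SUN2 (0.00, adjusted p = 0.965), also named after their values were seen, were not called. Of the 4 tested genes that farnesylate and trim prelamins, limma called 0, and the largest difference was that of ZMPSTE24, the protease that matures lamin A, at 276 and 224 TPM in shSASH1 and at 197 and 195 TPM in shControl (adjusted p = 0.0792).

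Among plakins and other linkers, 3 of 8 tested rose and 1 fell (median 0.16). PLEC, which encodes plectin, the linker between vimentin, lamina and adhesion sites, fell to 177 and 174 TPM in shSASH1, against 256 and 257 TPM in shControl (log2 change -0.55, adjusted p = 0.00501). The genes around PLEC were lower as a whole, with a median of -0.38, and centred on them PLEC was not called (-0.14, adjusted p = 0.184). UTRN (0.94), which encodes utrophin, and DST (0.72), which encodes a spectraplakin, rose, as did VCL (0.52), which encodes vinculin, and all 3 were still called after centring. VCL was not called without the filter on low values, with median-of-ratios or quantile scaling or without a variance trend. Among chaperones and turnover factors, 1 of 9 rose and 1 fell (median 0.04). CRYAB, the small heat shock protein that binds vimentin and desmin, rose to 35.3 and 21.5 TPM in shSASH1, against 7.99 and 8.27 TPM in shControl (log2 change 1.65, adjusted p = 0.0122). The deubiquitinase USP9X (-0.78) fell, but the genes around it had a median of -0.81, and after centring it was not called (0.07, adjusted p = 0.447).

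Of 20 kinases and phosphatases that act on filaments, 6 rose and 2 fell (median 0.07). PRKCA (0.85, adjusted p = 0.0113) and PRKCE (0.78, adjusted p = 0.0201), protein kinase C isoforms, and GSK3B (0.61, adjusted p = 0.00552), which phosphorylates neurofilament tails, rose. CDK5, a kinase of the neurofilament lysine-serine-proline repeats, fell to 30.3 and 31.4 TPM in shSASH1, against 46.1 and 52.3 TPM in shControl (log2 change -0.65, adjusted p = 0.0101). Of 7 tested transport motors 2 rose and 0 fell (median 0.31), the dynein heavy chain DYNC1H1 (0.46, adjusted p = 0.0214) and the kinesin KIF5B (0.31, adjusted p = 0.0271). KIF5B was not called when centred on its neighbours (0.18, adjusted p = 0.188), with median-of-ratios or quantile scaling or without a variance trend.

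**Figure D5:**
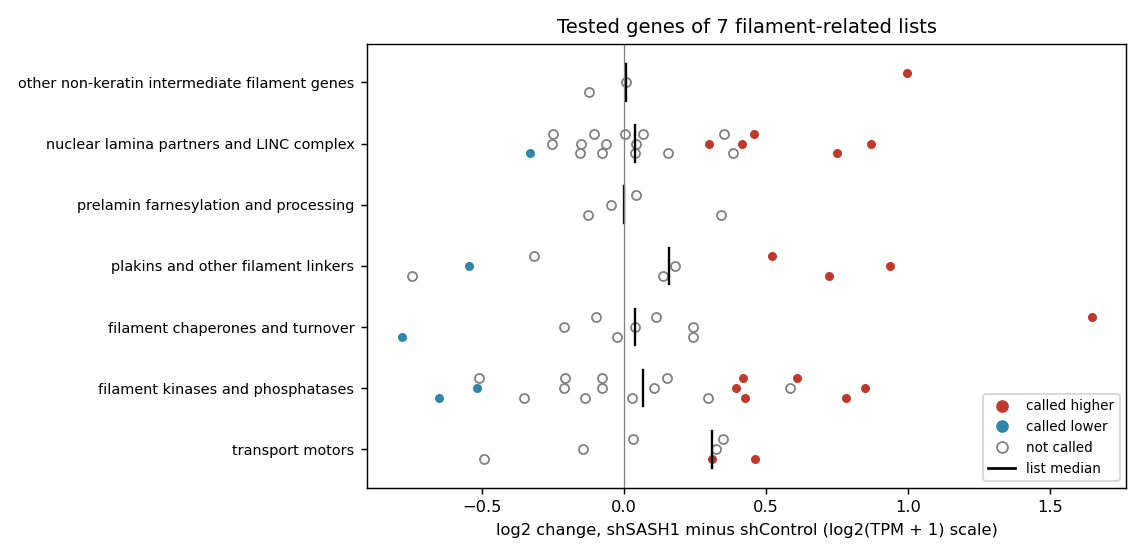
Log2 change of each tested gene in the 7 partner lists, with red for called higher, blue for called lower, open circles for not called and a black line at the list median. List medians lie between 0.00 and 0.31, and CRYAB at 1.65 is the gene farthest to the right.

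Markers of the cell types that these filaments are known from were compared beside the results. For the counts of called markers, 18.8% of all tested genes were called higher and 13.3% lower. Of 15 neuron markers, 5 were tested, and 0 were called higher and 1 lower, the synaptic vesicle gene SYP, picked after its value was seen (log2 change -1.09, adjusted p = 0.0284). The list summed to 18.2 and 20.3 TPM in shSASH1 and to 22.8 and 19.4 TPM in shControl, and the defining genes STMN2 and SNAP25 were listed at 0 in all 4 libraries. The most abundant, UCHL1, was at 8.15 and 9.37 TPM in shSASH1 and at 11.4 and 9.19 TPM in shControl, and MAP2 was not called (adjusted p = 0.883). TUBB3, a neuronal tubulin picked after its values were seen, was at 0.688 and 3.75 TPM in shSASH1 and at 0.462 and 0.690 TPM in shControl, with overlap, and was not called (adjusted p = 0.282). Of 11 progenitor and glial markers, 3 were tested, with 0 higher and 1 lower. MSI1, an RNA-binding protein of neural progenitors, fell to 0.793 and 0.745 TPM in shSASH1, against 8.32 and 6.44 TPM in shControl (log2 change -2.24, adjusted p = 0.00430), while SOX10 (adjusted p = 0.485) and PAX6 (adjusted p = 0.151) were not called, and SOX1 and FABP7 were listed at 0 throughout. The list summed to 4.44 and 5.96 TPM in shSASH1 and to 13.7 and 10.98 TPM in shControl.

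Of 18 mesenchymal and fibroblast markers, 5 were tested, and 3 rose and 0 fell. Of all tested genes, 18.8% were called higher and 13.3% lower, and nothing is read from a count over 5 genes. FN1, which encodes fibronectin, rose to 14.4 and 15.2 TPM in shSASH1, against 4.51 and 4.42 TPM in shControl (log2 change 1.53, adjusted p = 0.00317), and S100A4 rose by 0.40 (adjusted p = 0.0249). The genes within 10 Mb had a median change of 0.45 around FN1 and of 0.34 around S100A4, which lies on chromosome 1 near LMNA and so hardly exceeded its neighbours. TWIST1, picked after its value was seen, was at 3.28 and 2.68 TPM in shSASH1 and listed at 0 in both shControl libraries. COL1A1 was not called (adjusted p = 0.0557), and COL1A2 and LUM were listed at 0 in all libraries. SNAI1, also picked after its values were seen, was not called (adjusted p = 0.147). It stood at 3.49 and 9.30 TPM in shSASH1 and at 2.40 and 2.56 TPM in shControl. Under the filter, FBN1 and THY1 lay lower in shSASH1 without overlap and ZEB1, PDGFRB and SPARC higher, all picked after their values were seen. Also under the filter, CDH2, ZEB2, SNAI2, COL3A1, ACTA2 and DCN overlapped between the groups. FBN1 stood at 0.199 and 0.595 TPM in shSASH1 and at 1.02 and 1.05 TPM in shControl. ZEB1 stood at 0.546 and 0.728 TPM in shSASH1 and at 0.0788 and 0.135 TPM in shControl. The list sum, nearly all of it S100A4, was 1495 and 1657 TPM in shSASH1 and 1212 and 1157 TPM in shControl. The part of these markers, and of MSI1 and SYP, in the levels of VIM, NES and NEFH was not tested. Of the endothelial and muscle markers 0 of 4 tested were called, with CKM, KDR and PECAM1 at no more than 6.38 TPM. Of 9 leukocyte markers 1 was tested and 0 were called, with CD14 at 33.3 and 96.5 TPM in shSASH1 and at 33.2 and 39.9 TPM in shControl. The other 8 were under the filter, some of them higher and some lower in shSASH1 without overlap. Of these, PTPRC, picked after its values were seen, was under 0.105 TPM. All 12 markers of the breast epithelial line were tested, and 2 rose and 1 fell (median -0.19). EGFR stood at 2191 and 2203 TPM in shSASH1 and at 1169 and 1075 TPM in shControl (log2 change 0.97, adjusted p = 0.00340). KRT19 was at 2041 and 1728 TPM in shSASH1 and at 2380 and 2548 TPM in shControl, without overlap (adjusted p = 0.0533), and KRT5 overlapped (adjusted p = 0.693). Of those picked after their values were seen, LAMB3 rose by 1.89 and ITGB4 fell by 0.83 on the log2 scale. E-cadherin CDH1 (-0.47, adjusted p = 0.0913), KRT14 (-0.80, adjusted p = 0.0795), EPCAM (-0.18, adjusted p = 0.0724) and KRT18 (-0.08, adjusted p = 0.370) were not called. These lay lower in shSASH1 without overlap, as did 32.3% of all tested genes. KRT7, KRT8 and KRT17 overlapped between the groups (adjusted p = 0.386, 0.422 and 0.532).

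The genes nearest in pattern, by Euclidean distance of centred log2(TPM + 1) over the 4 libraries among tested protein-coding genes, are given as a description over 4 points. For NEFH they were FTHL17 (distance 0.569), SPATC1L (0.622) and PLXDC2 (0.735). For NES they were UNC5B (0.0477), DNAJC22 (0.192) and FOXI1 (0.200). UNC5B, a netrin receptor, stood at 6.90 and 5.25 TPM in shSASH1, against 55.3 and 53.8 TPM in shControl. For VIM they were SLC5A1 (0.278), ANKRD1 (0.314) and DAPK1 (0.394). For SYNM they were METAP1D, TRDMT1 and FAM240C, at up to 0.0653. For LMNA they were IRS1, ENTREP1 and ACTN1, at up to 0.0734. For LMNB1 they were ADRM1, ATOX1 and RABL3, at up to 0.0275. For LMNB2 they were KIF5B, DKC1 and NT5C2, at up to 0.0207, and small distances are common where differences are small.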

How the data were processed

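Total RNA of MDA-MB-468 cells was sequenced after TRIzol extraction and NEBNext Ultra library preparation, per the labels' protocols. The authors deposited TPM per Ensembl gene, 1 column per library, named by group and replicate. The submitters' processing notes name STAR, DESeq2 and the hg38 build, with no version. For the counter, the gene lengths and strandedness no statement was found in the labels or headers. All 26518 identifiers were found in GENCODE release 29, used for names, positions (1-based) and exon lengths.

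Log2(TPM + 1) of genes averaging 1 TPM or more was fitted in limma 3.58.1 (R 4.3.3), with a variance trend and no replicate block, two-sided, with Benjamini-Hochberg adjustment over all 14458 genes. TPM keeps no depth, so reads were rebuilt from TPM times exon length with a scale per library that makes low values whole. Of values up to 20 reads, 88.6% to 89.3% came within 0.05 of a whole number. The estimated totals of 19560807 to 24375729 reads give Poisson intervals (95%) and floors (3 reads) for counting error only. With 2 libraries a group, the smallest two-sided p of an exact permutation test is 0.333. The fit was tested on simulated data with the same spread in both groups and few changed genes. That test does not cover the unequal spread of these groups or the large share of genes called. The genes, the partner and marker lists and the settings were chosen with earlier results of these data known. MACF1 and FNTB were not analysed here. A marker gene and some coding sequences are not reported here. Named list genes were, per list, up to 4 called genes with the largest change and a group mean of at least 5 TPM, and the 3 most abundant markers. Of the leukocyte markers, only the most abundant was named by this rule. For each fitted member, the 3 nearest genes in pattern were named as well. Tables used scipy 1.17.1, numpy 2.4.6 and pandas 2.3.3 in Python 3.11.15, and plots matplotlib 3.10.9.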

Additional observations from a re-analysis of the deposited data

How the results depend on the processing

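The numbered libraries share only a number (the correlation of same-numbered libraries' deviations from their group means was -0.0322 across genes). With the replicate block 3929 genes were called over the whole table, 25 among the partner lists and 3 among the described genes, where LMNB2 was lost. When 1 library is dropped, the one remaining is assumed to vary like the other group's pair. The calls then ranged from 0 to 7728 over the whole table, from 0 to 38 in the partner lists and from 0 to 6 among the described genes, and each 0 came from leaving out either shControl library. Without shControl replicate 1, 3446 genes had an unadjusted limma p under 0.05, and without shControl replicate 2, 3326 had. Across the 13 other settings (12 for VIM, which a filter at 5 TPM removes) the log2 change of every fitted gene kept its direction, with NEFH from 4.25 to 6.20, NES from -4.68 to -2.80, VIM from 1.65 to 3.18, SYNM from -0.72 to -0.37, LMNA from 0.21 to 0.76, LMNB1 from -0.26 to -0.04 and LMNB2 from 0.24 to 0.37. The filters, the variance trend and the replicate block cannot move the log2 change, and leaving out a library cannot turn it where groups do not overlap. LMNB2 was not called after median-of-ratios scaling, without a variance trend, with the replicate block or centred on neighbours. SYNM was called with voom. The log2 change of LMNA was 0.31 without shSASH1 replicate 1 and 0.76 without shSASH1 replicate 2. The described genes were chosen with this comparison known, so nothing is read from their calls. Of the 23 partner genes called, 16 stayed called when centred on neighbours. Low read numbers limit NEFH and VIM in shControl and NES in shSASH1, and NEFM and NEFL throughout.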
